A study of Mus musculus with 7 samples.

Results

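Dsg1c, the rest of the desmosome and its neighbouring cell junction genes were examined in mouse liver as a set of 10 genes: Dsg1c, Dsg2, Dsc2, Dsp, Jup, Pkp2, Pkp4, Cdh1, Cdh2 and Ctnna1. They were found by name, 1 row each, among the 51826 genes of the count table, and all 10 passed the filter on low counts that left 13989 genes to test. The set was chosen by the counts of the same 7 libraries, with the genotype contrast known and Dsg1c among the genes lower in the knock-in, so differences of the members between genotypes are a description. The libraries were made from polyadenylated liver RNA of male C57BL/6J mice aged 6 months, all untreated. They comprise 3 wild-type libraries and 4 libraries homozygous for the knock-in allele Sprtn Y118C, a substitution in a protease known to digest proteins bound covalently to DNA. The labels do not say whether the genotypes were littermates or whether animals were pooled. Each library was taken as 1 sample, and p-values measure only the spread between libraries.

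Desmosomes are adhesive plaques that tie the keratin filaments of neighbouring epithelial cells together. Desmogleins and desmocollins, both cadherins, span the gap between cells. Inside the cell the armadillo proteins plakoglobin and plakophilin bind their tails, and desmoplakin links this plaque to keratin. The adherens junction is built in a parallel way on classical cadherins, whose tails bind catenins that reach the actin cytoskeleton. In liver, desmosomes and adherens junctions lie along the hepatocyte borders next to the bile canaliculus, and hepatocytes carry both E-cadherin and N-cadherin. Mouse has a local family of Dsg1 genes, Dsg1a, Dsg1b and Dsg1c, where human has a single DSG1.

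Total counts ranged from 40297676 to 46755357 in wild type and from 36928472 to 46736592 in the knock-in. Hepatocyte markers were abundant in every library, with a summed 67264 to 91223 library-scaled counts per 1e6 counts (CPM) over 6 genes, matching the tissue label. Skin epithelium could have brought in desmosomal transcripts. Of the 6 markers listed for it, Krt5 and Krt1 had 0 counts in all 7 libraries. The 2 that could be tested had log2 differences, knock-in minus wild type, of -0.72 and -0.19. Their edgeR quasi-likelihood adjusted p ranged from 0.505 to 0.782. The 6 genes of that list summed to 4.26 to 6.27 CPM in wild type against 3.07 to 4.56 CPM in knock-in libraries, and their part in the Dsg1c difference was not tested. Skeletal muscle markers stood at a summed 66.1 CPM in knock-in replicate 1 and at 0.0787 to 0.325 CPM elsewhere. Transcripts of Sprtn were present in both genotypes, at 10.001 ± 1.11 CPM (SD, n = 3) in wild type against 11.3 ± 0.946 CPM (SD, n = 4) in knock-in livers, and a point mutation need not alter their level, so this does not check the labels.

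Liver expressed a narrow selection of desmosomal genes. Per transcript length, on the authors' TPM scale, the desmoglein Dsg2 averaged 22.6 TPM over the 7 libraries, against 2.73 TPM for Dsg1c. The desmocollin Dsc2 averaged 14.01 TPM, the plakophilin Pkp2 11.5 TPM, plakoglobin (Jup) 11.1 TPM and desmoplakin (Dsp) 9.86 TPM. The cadherins and plakophilin of stratified epithelia were almost absent. Dsg1a and Dsg4 had 0 counts in every library, Dsc1 and Dsc3 had 1 count each in all, Dsg3 had 2, Dsg1b had 13 and Pkp1 had 53. Perp, a membrane protein of desmosomes and a p53 target gene, was the most abundant desmosomal gene outside the set at 77.0 TPM.

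The order of levels within the set was set by its ends. Ctnna1, the alpha-catenin that couples cadherin complexes to actin, led at 55.9 TPM, and its lowest library lay above the highest of every other member. N-cadherin (Cdh2, 23.8 TPM), Pkp4 (22.6 TPM) and Dsg2 followed, and the ranges of each of these and the next overlapped. Pkp4 is an armadillo protein related to delta-catenin that is found at adherens junctions and desmosomes. Cdh1, which encodes E-cadherin, averaged 14.6 TPM but spread from 9.23 to 24.3 TPM. Its range overlapped those of Dsg2 above it and Dsc2 below it, and the ranges of Dsc2, Pkp2, Jup and Dsp overlapped from each to the next. Dsg1c was last, and its highest library, at 5.03 TPM, lay below the lowest of Dsp, at 8.58 TPM.

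**Figure D1:**
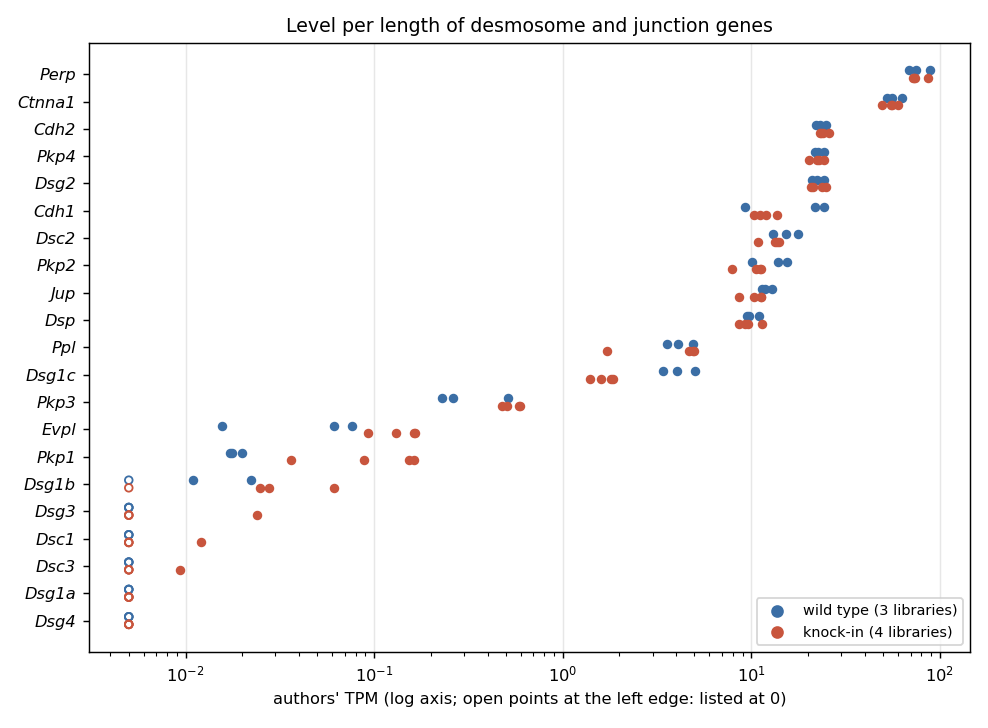
Level per transcript length of the 10 members and of the other desmosomal genes, as the authors' TPM on a log axis, with 1 point per library (blue wild type, red knock-in) and open points at the left edge for a listed 0. Dsg2 and Dsc2 stand far above the other desmogleins and desmocollins, and Dsg1c, at 1.39 to 5.03 TPM, lies below all other members.

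Dsg1c was lower in every knock-in library than in every wild-type library. It encodes a desmoglein of the Dsg1 type (ENSMUSG00000034774, chromosome 18, 20247340 to 20285031, plus strand, mm10). The wild-type libraries held 313, 412 and 382 counts, or 7.45, 10.3 and 7.94 CPM. The knock-in libraries held 182, 104, 132 and 166 counts, or 4.02, 2.73, 3.35 and 3.91 CPM. The gap between the groups, from 4.02 to 7.45 CPM, was wider than the spread within either of them. The means were 8.56 ± 1.51 CPM (SD, n = 3) and 3.50 ± 0.593 CPM (SD, n = 4), a 2.44-fold lower level, or a log2 difference of -1.29 ± 0.17 (standard error, SE). The adjusted p was 0.0725 in the edgeR quasi-likelihood test and 0.0807 in limma-voom, so neither called it, and 8.88e-08 in DESeq2. The authors' deposited table gave Dsg1c a log2 fold change of -1.29 and a corrected p of 9.61e-06.

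Among the desmogleins of liver, Dsg1c therefore held a smaller share in the knock-in. It made up 12.2%, 18.4% and 16.2% of the summed TPM of the 6 desmoglein genes in the wild-type libraries. In the knock-in libraries it made up 7.87%, 5.51%, 7.12% and 6.98%. Nearly all of the rest was Dsg2, at 84.4% ± 3.07 (SD, n = 3) in wild type and 93.0% ± 1.05 (SD, n = 4) in the knock-in. The shares are read from the same contrast that brought Dsg1c into the set, and in bulk tissue fewer cells of a type and less RNA per cell cannot be told apart.

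The Dsg1 genes are close copies, which bears on what was counted. The top-scoring alignment of the Dsg1c transcript with that of Dsg1b covered 1704 bases at 94.7% identity, and with that of Dsg1a 1752 bases at 94.3%. Any further alignments of a pair were not counted. Of the 50-base stretches of the Dsg1c transcript, 29.6% occur unchanged in a transcript of another gene. The share was 5.07% for Dsg2, 4.72% for Dsp and 0% for Dsc2, Jup, Pkp2, Pkp4, Cdh1, Cdh2 and Ctnna1. No source used here states how reads matching several genes were counted, so the counts of Dsg1c are uncertain to that extent. Dsg1a stayed at 0 counts and Dsg1b at 0 to 6 counts per library.

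Dsg1c lies in a cluster of desmosomal cadherin genes, and the genes beside it had smaller differences. From Dsc3 to Dsg2 the cluster spans 644 kb of chromosome 18 and holds 9 cadherin genes. Dsc2, 188 kb before Dsg1c on the opposite strand, had a log2 difference of -0.21 ± 0.16 (SE). Dsg2, 273 kb past Dsg1c on the same strand, had 0.02 ± 0.11 (SE). Just beyond lie Ttr, the transthyretin gene that hepatocytes express at a high level (8479 TPM), and B4galt6, a galactosyltransferase gene. Their log2 differences were -0.01 ± 0.14 (SE) and 0.35 ± 0.19 (SE). The edgeR quasi-likelihood adjusted p of these 4 neighbours ranged from 0.539 to 0.992, in a test that called 0.0357% of all genes, and the other 8 listed genes of this stretch had too few counts to test. The gap between Dsg1c and its neighbours was not tested.

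**Figure D2:**
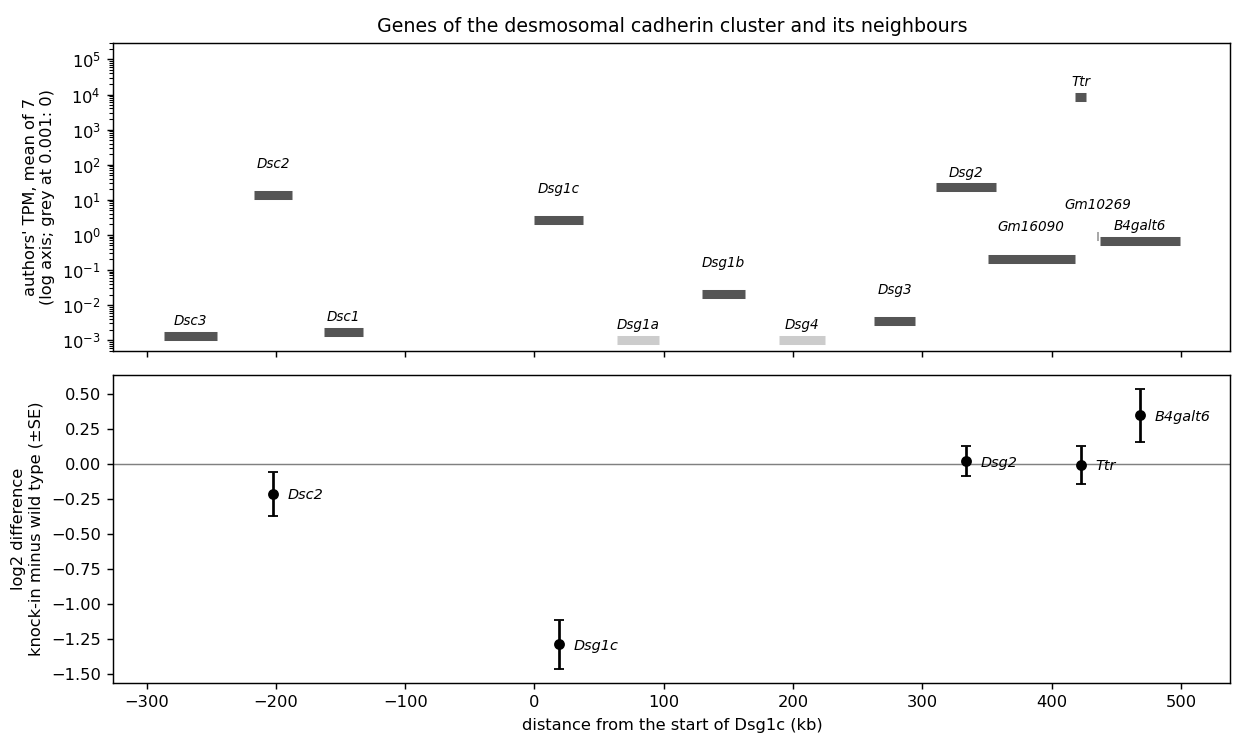
Genes of the desmosomal cadherin cluster by distance in kb from the start of Dsg1c, with the mean authors' TPM over 7 libraries on a log axis (top, 1 bar per gene drawn to its length) and the log2 difference of knock-in minus wild type with its SE for the 5 tested genes (bottom). Dsg1c lies at -1.29, while Dsc2, Dsg2 and Ttr lie between -0.21 and 0.02 and B4galt6 lies at 0.35.

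The partners of Dsg1c in the desmosome differed little between genotypes. Dsg2 had wild-type values of 108, 92.4 and 83.0 CPM against knock-in values of 94.8, 94.4, 88.1 and 105 CPM. The wild-type libraries spanned the whole knock-in range. Dsp, the linker to keratin, had wild-type values of 50.5, 52.7 and 43.6 CPM against knock-in values of 44.8, 52.8, 47.3 and 45.8 CPM, a log2 difference of -0.04 ± 0.09 (SE). Dsc2 had wild-type values of 43.6, 46.6 and 32.9 CPM against knock-in values of 40.4, 27.5, 37.3 and 36.1 CPM, with overlapping groups. Its log2 difference ranged from -0.35 to -0.11 when each library was left out.

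Plakoglobin and Pkp2, armadillo proteins of the plaque, had lower means in the knock-in, within overlapping groups. Jup had wild-type values of 39.7, 38.2 and 39.7 CPM against knock-in values of 39.5, 34.8, 34.2 and 28.6 CPM. Its wild-type libraries lay close together, with a coefficient of variation (SD over mean) of 2.19%, and knock-in replicate 1 reached their level. The log2 difference of Jup was -0.19 ± 0.11 (SE), and -0.12 without knock-in replicate 4. Pkp2 had wild-type values of 29.2, 41.4 and 35.8 CPM against knock-in values of 32.4, 29.1, 29.3 and 21.7 CPM, a log2 difference of -0.33 ± 0.16 (SE), and of -0.21 without wild-type replicate 2. Knock-in replicate 4 was lowest for Jup, Pkp2 and Pkp4. Pkp4 itself differed little, with a log2 difference of -0.02 ± 0.08 (SE). Its wild-type values of 67.0, 64.4 and 66.8 CPM lay among the knock-in values of 69.0, 66.5, 66.9 and 59.1 CPM.

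**Figure D3:**
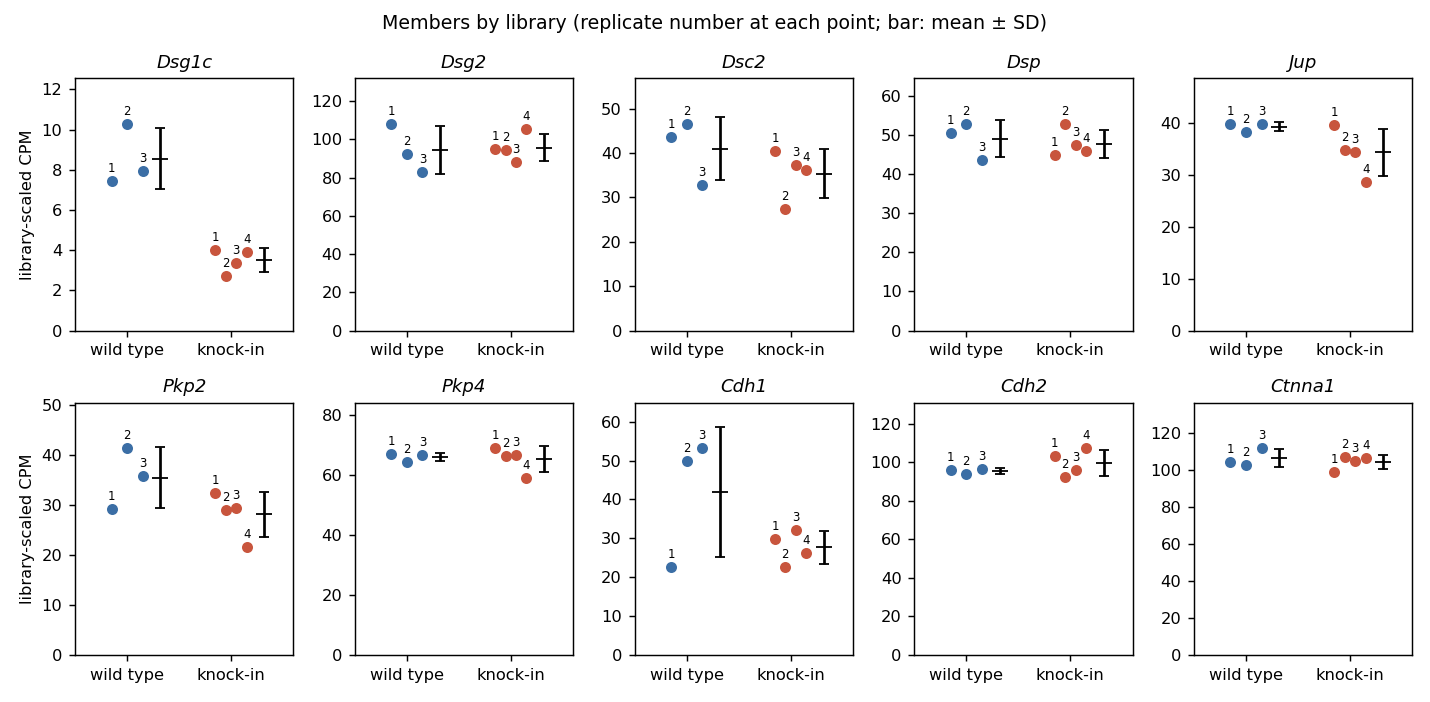
Library-scaled CPM of the 10 members in each library (blue wild type, red knock-in, replicate number above each point), with the mean and SD of each group as a black bar and every axis starting at 0. The groups are apart for Dsg1c, at 2.73 to 4.02 against 7.45 to 10.3 CPM, and overlap for the other 9 members.

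In the adherens junction, N-cadherin and alpha-catenin were steady, whereas E-cadherin varied most of all members in wild type. Cdh2 had wild-type values of 95.7, 93.8 and 96.4 CPM against knock-in values of 103, 92.4, 95.7 and 107 CPM, a log2 difference of 0.06 ± 0.08 (SE). Ctnna1 had wild-type values of 104, 103 and 112 CPM against knock-in values of 98.9, 107, 105 and 106 CPM, a log2 difference of -0.03 ± 0.07 (SE). Cdh1 had wild-type values of 22.7, 49.8 and 53.2 CPM against knock-in values of 29.7, 22.6, 32.2 and 26.2 CPM. Wild-type replicate 1 stood with the knock-in libraries, and wild-type replicates 2 and 3 stood above all of them. The coefficient of variation of Cdh1 was 39.8% in wild type, against 1.44% for Cdh2. Cdh1 had a log2 difference of -0.60 ± 0.26 (SE), which was -0.90 without wild-type replicate 1 and -0.39 without wild-type replicate 3.

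Set beside each other, E-cadherin took 48.4% and 49.3% of the summed TPM of Cdh1 and Cdh2 in wild-type replicates 2 and 3. It took 29.5% in wild-type replicate 1 and 30.1% to 37.2% in the knock-in libraries.

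Over the set, 8 of 10 members had negative log2 differences, with a median of -0.12. Of all tested genes 49.9% were below 0, with a median of 0.000699. Among the 8, the differences of Dsp (-0.04), Pkp4 (-0.02) and Ctnna1 (-0.03) were smaller than their SE and changed sign in some alternatives. In the edgeR quasi-likelihood test 0 members were called at an adjusted p under 0.05 (from 0.0725 for Dsg1c to 0.964 for Dsg2), where 0.0357% of all genes were called. At an unadjusted p under 0.05 there was 1 member, Dsg1c, where 10.6% of all genes passed, 5.6% higher and 4.97% lower. DESeq2 called 1 member, Dsg1c (DESeq2 adjusted p = 8.88e-08), where it called 1.59% of all genes. With limma-voom 0 members were called, where it called 7 of 13989 genes. The authors' deposited table also held 1 member, Dsg1c, under a corrected p of 0.05, as for 0.633% of its genes. Groups did not overlap for 1 of 10 members and for 10.9% of all tested genes (5.46% lower and 5.48% higher). With no expression filter edgeR called 1 member, Dsg1c (edgeR adjusted p = 0.0264), and 0.0856% of all genes. Since the genotype contrast brought Dsg1c into the set, these counts describe the members and carry no weight as evidence. Without wild-type replicate 1 edgeR called Dsg1c and Cdh1 (edgeR adjusted p = 0.0334 and 0.0391), while 0.691% of all genes were called.

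The members did not move as a block from library to library. Among the 45 pairs of members, the Pearson correlation of log2 CPM over the 7 libraries had a median of 0.05 and ranged from -0.73 to 0.82. It was highest for Jup with Pkp4 (0.82), Jup with Pkp2 (0.80) and Pkp2 with Cdh1 (0.73), and lowest for Dsg2 with Cdh1 (-0.73). These points share library and genotype and are given as a description.

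E-cadherin is known as a periportal protein of the liver lobule, so zonation markers are given beside the members. The 8 periportal markers all had negative log2 differences. Of them 0 were called by edgeR (adjusted p from 0.191 to 0.977), against 0.0357% of all genes. There were 6 at an unadjusted edgeR p under 0.05 and 4 called by DESeq2, against 10.6% and 1.59% of all genes. Groups did not overlap for 5 of the 8, against 10.9% of all genes. The authors' deposited table held 3 under a corrected p of 0.05 (Sds, Gls2 and Sdsl), against 0.633% of its genes. Their summed level was 8320 to 10979 CPM in wild type against 5647 to 7812 CPM in knock-in libraries, and none was at 0. The periportal score, the mean centred log2 CPM of these markers, was 0.10, 0.59 and 0.29 in wild type, all above the knock-in values of -0.08, -0.29, -0.14 and -0.48. Dsg1c and Pkp2 were highest in wild-type replicate 2, where this score was highest, and Pkp2 was lowest in knock-in replicate 4, where it was lowest. Dsg1c stood at 3.91 CPM in knock-in replicate 4, within its knock-in range of 2.73 to 4.02 CPM. Both Dsg1c and Cdh1 were lowest in knock-in replicate 2. The 8 pericentral markers all had positive log2 differences, and 0 were called (edgeR adjusted p from 0.237 to 0.955). There were 3 at an unadjusted edgeR p under 0.05 and 2 called by DESeq2, against the same shares of all genes. Groups did not overlap for 2 of the 8, against 10.9% of all genes, and the authors' deposited table held 1, against 0.633% of its genes. The pericentral score was 0.21 in wild-type replicate 1 and -0.49 and -0.73 in the other wild-type libraries, against 0.06 to 0.38 in knock-in libraries. For Cdh1 this replicate stood with the knock-in libraries, and for Dsg1c it stood with wild type. The marker lists were chosen with earlier results of these data known, so these counts are a description. The part of zonation in the differences of Dsg1c, Pkp2 and Cdh1 was not tested.

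**Figure D4:**
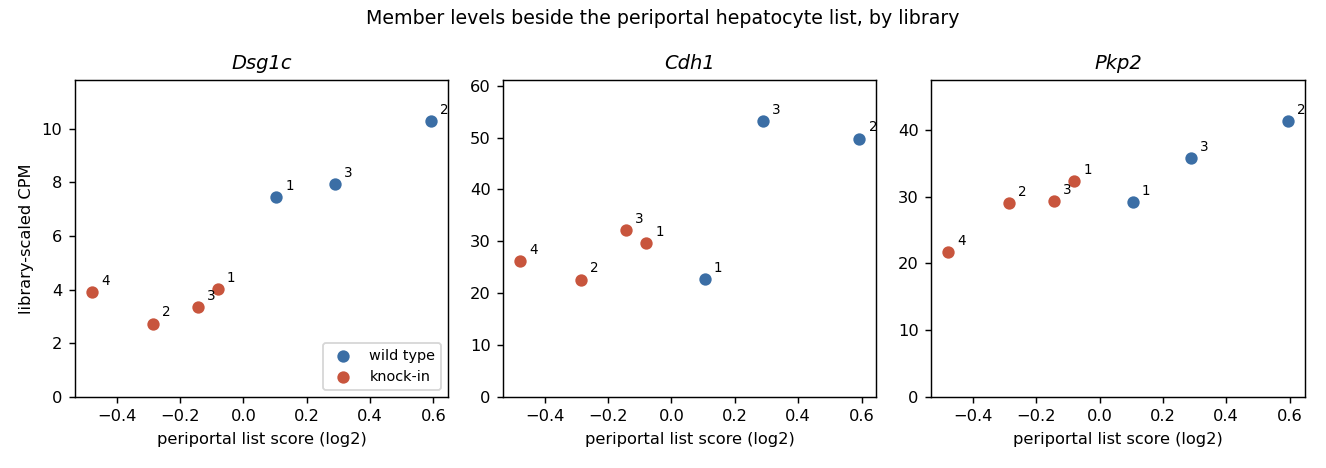
Library-scaled CPM of Dsg1c, Cdh1 and Pkp2 (y axes, starting at 0) against the periportal list score in log2 units (x axis), with 1 point per library and its replicate number (blue wild type, red knock-in). Wild-type replicate 1, at a score of 0.10, lies with wild type for Dsg1c at 7.45 CPM and with the knock-in for Cdh1 at 22.7 CPM.

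Other cell types also carry junction genes. Cholangiocyte markers summed to 13.7 to 21.4 CPM in wild type against 15.4 to 20.6 CPM in knock-in libraries over 6 genes, and Cftr was at 0 counts in knock-in replicate 3. Endothelial markers summed to 177 to 200.01 CPM and 175 to 215 CPM. Stellate cell markers summed to 62.4 to 80.2 CPM and 69.1 to 88.6 CPM. In these lists 0 genes were called by edgeR (adjusted p from 0.532 to 0.991), with 0 by DESeq2 and 0 at an unadjusted p under 0.05. Kupffer cell markers summed to 225.1 to 291 CPM in wild type against 178 to 224.8 CPM in knock-in libraries, and 6 of 6 had negative log2 differences. Of these, edgeR called 1 lower, the phosphatidylserine receptor gene Timd4 (log2 difference -2.92 ± 0.20, SE, edgeR adjusted p = 0.00132), against 0.0357% of all genes. DESeq2 called 4 of the 6, against 1.59% of all genes. Groups did not overlap for 4 of the 6, against 10.9% of all genes. The authors' deposited table held 2 under a corrected p of 0.05, as for 0.633% of its genes. The part of these cell types in the differences of junction genes was not tested.

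The wider junction machinery was described with 5 further lists, of which 69 of 93 genes in the table were tested. In the edgeR quasi-likelihood test 0 of the 69 were called (lowest adjusted p = 0.257), where 0.0357% of all genes were. At an unadjusted p under 0.05 there were 11, 5 higher and 6 lower in the knock-in, or 15.9% against 10.6% of all genes. DESeq2 called 1, Nectin3, where it called 1.59% of all genes. With limma-voom 0 were called, where it called 7 of 13989 genes. The genotypes did not overlap for 6 of the 69, or 8.70%, against 10.9% of all tested genes, and the median log2 difference was -0.01.

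**Figure D5:**
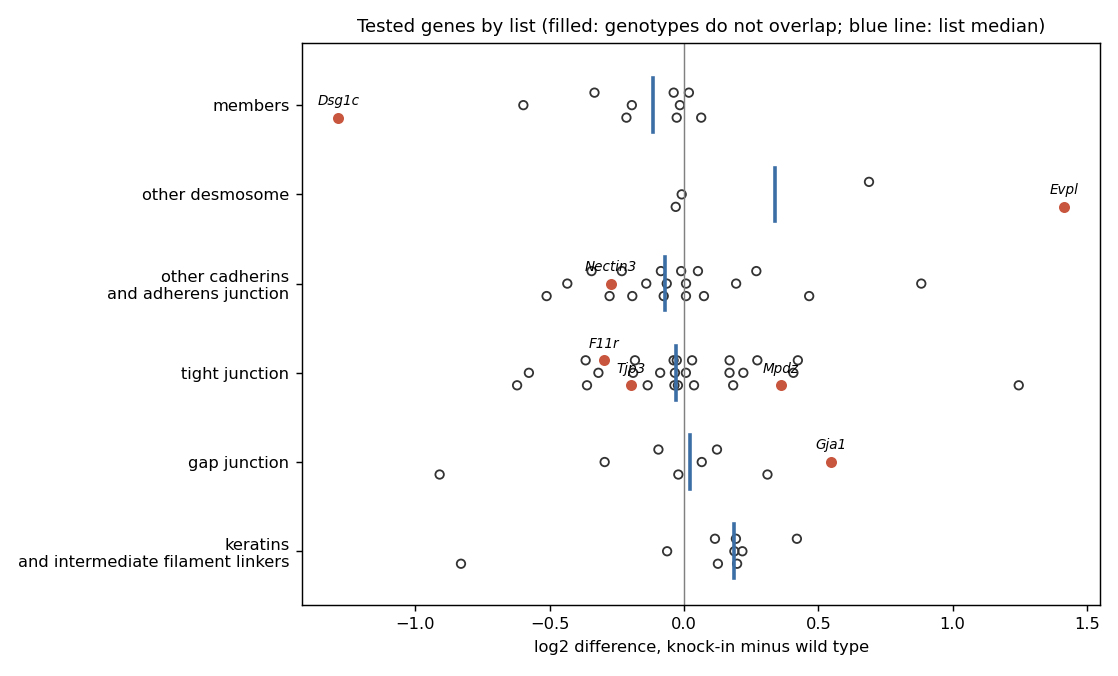
Log2 difference of knock-in minus wild type for the tested genes of the set and of the 5 other junction lists, with 1 point per gene, filled and named where the genotypes do not overlap, and a blue line at each list's median. Dsg1c lies at -1.29, and the medians of the other lists lie between -0.07 and 0.34.

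Of the 4 tested genes among the other desmosomal genes, 0 were called by edgeR or DESeq2, and 1, Evpl, had an unadjusted p under 0.05. Envoplakin (Evpl), a plakin of the cornified envelope, had wild-type values of 11, 2 and 9 counts against knock-in values of 26, 19, 17 and 13 counts, with a log2 difference of 1.42 ± 0.49 (SE). The knock-in libraries lay above wild type in CPM, and the gene was not called (edgeR adjusted p = 0.368). Pkp1, the plakophilin of stratified epithelia and like Evpl without overlap in CPM, had 2 counts in each wild-type library and 20, 14, 9 and 4 in the knock-in. It was below the filter, and with no expression filter its edgeR adjusted p was 0.302. Pkp3 had wild-type values of 42, 19 and 19 counts against knock-in values of 45, 39, 35 and 47 counts, so that wild-type replicate 1 again stood with the knock-in. Its log2 difference of 0.69 ranged from 0.44 to 1.20 when each library was left out. Perp stood at 76.9 ± 14.6 CPM (SD, n = 3) in wild type against 76.4 ± 4.26 CPM (SD, n = 4) in knock-in livers. Periplakin (Ppl), a plakin that binds keratin, had 13.8, 15.5 and 10.8 CPM in wild type, compared with 16.7, 14.97 and 15.03 CPM in knock-in replicates 1 to 3, against 5.56 CPM in replicate 4.

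Among the 20 tested genes of other cadherins and the adherens junction, 12 had negative log2 differences, with a median of -0.07. The adhesion molecule Nectin3 had wild-type values of 50.7, 52.4 and 49.3 CPM against knock-in values of 44.2, 40.8, 40.8 and 42.3 CPM. The groups did not overlap, and the log2 difference of -0.27 ± 0.07 (SE) did not pass in edgeR (adjusted p = 0.257), while DESeq2 called it (adjusted p = 0.0468). Its relative Nectin1 had a log2 difference of -0.19 ± 0.08 (SE). Ctnnbip1, an inhibitor of beta-catenin, had -0.43 ± 0.17 (SE), and the actin-binding protein Ablim1 had -0.51 ± 0.20 (SE). Ablim1 had 19.3, 32.6 and 37.2 CPM in wild type against 18.8 to 22.8 CPM in the knock-in, so that wild-type replicate 1 lay within the knock-in range. Without that library its log2 difference was -0.74 and it was called (edgeR adjusted p = 0.0391), while without wild-type replicate 3 it was -0.32 (edgeR adjusted p = 0.605). Beta-catenin (Ctnnb1) stood at 206 ± 10.6 CPM (SD, n = 3) in wild type against 207 ± 9.58 CPM (SD, n = 4) in knock-in livers.

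Tight junction genes differed in both directions without a call. Of 28 tested genes, 16 had negative log2 differences, with a median of -0.03. Occludin (Ocln), a strand protein, had wild-type values of 18.3, 26.9 and 21.5 CPM against knock-in values of 12.8, 11.5, 13.5 and 19.98 CPM. Only knock-in replicate 4 overlapped wild type, and the log2 difference was -0.62 ± 0.20 (SE, edgeR adjusted p = 0.346). The junctional adhesion molecule F11r had wild-type values of 57.8, 70.4 and 65.4 CPM against knock-in values of 55.6, 56.5, 48.7 and 49.4 CPM, all below wild type. Mpdz, a scaffold with PDZ domains, was higher in every knock-in library, at 20.7, 23.3, 23.3 and 25.2 CPM against 18.3, 18.7 and 17.0 CPM. Its log2 difference was 0.36 ± 0.09 (SE, edgeR adjusted p = 0.257). Among the 28 tested genes, 2 lower and 1 higher did not overlap, against 5.46% lower and 5.48% higher among all tested genes. Tjp3, the only other tested gene of this list without overlap, had a log2 difference of -0.20. The untested Cldn6, with 43 counts in all, did not overlap either, at 0.152 to 0.210 CPM in the knock-in against 0.0832 to 0.119 CPM. Both were named after their values were seen. Ildr1, a protein of tricellular contacts, had 4 to 14 counts per library and a log2 difference of 1.25 ± 0.47 (SE).

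A pair of claudins, named after their values were seen, differed in opposite directions. Cldn1 had wild-type values of 35.6, 74.8 and 69.3 CPM against knock-in values of 45.9, 25.4, 38.3 and 50.8 CPM. As for Cdh1, wild-type replicate 1 lay within the knock-in range. Cldn2, a pore-forming claudin known to be graded towards the central vein in rat liver, had wild-type values of 77.8, 53.1 and 64.9 CPM against knock-in values of 81.1, 91.3, 71.2 and 103 CPM. Wild-type replicate 1 was again within the knock-in range, and neither was called (edgeR adjusted p = 0.507 and 0.411).

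The main connexin of hepatocytes differed by less than the spread between libraries. Gjb1, which encodes this channel protein, connexin 32, stood at 728 ± 87.6 CPM (SD, n = 3) in wild type against 681 ± 95.2 CPM (SD, n = 4) in knock-in livers. Gja1, a connexin of non-parenchymal cells, had wild-type values of 4.10, 3.34 and 3.02 CPM against knock-in values of 4.97, 6.32, 4.51 and 4.57 CPM, all above wild type. Its log2 difference of 0.55 ± 0.17 (SE) was not called (edgeR adjusted p = 0.346). Gjc3, Gja5 and Gja4 had log2 differences of -0.91, -0.30 and 0.31, with overlapping groups, and each moved by over 1.5 times without single libraries. Gjc3 was at -0.32 without wild-type replicate 2. Gja5 ranged from -0.52 to 0.21 and Gja4 from 0.08 to 0.60 when each library was left out.

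Keratins, the filaments that desmosomes anchor, had mostly positive log2 differences, none of which passed the test. Krt8 had wild-type values of 169, 222 and 247 CPM against knock-in values of 239, 202, 209 and 338 CPM, with the highest value in knock-in replicate 4. Its log2 difference of 0.22 ranged from 0.03, without that library, to 0.34, without wild-type replicate 3. Its partner Krt18 averaged 109 ± 17.5 CPM (SD, n = 3) in wild type against 118 ± 20.03 CPM (SD, n = 4) in knock-in livers. Of the 9 tested genes of this list 7 had positive log2 differences, and 0 were called by edgeR (adjusted p from 0.504 to 0.952), with 0 at an unadjusted p under 0.05. The linkers plectin (Plec) and dystonin (Dst) had log2 differences of 0.13 and 0.19, the latter 0.09 without knock-in replicate 2 and 0.28 without wild-type replicate 1. Krt23, a keratin found in liver under stress, had 5.72 CPM in wild-type replicate 3 against 1.39 to 2.20 CPM in the other libraries, and its log2 difference of -0.83 became -0.07 without that library.

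Outside the set and the junction lists, the genes whose pattern over the 7 libraries was most like that of Dsg1c were Ocel1, Map4k2, Tm4sf1, Tle2 and Ggh. The candidates were 11080 tested genes with a mean of at least 1 CPM. Members, genes of the junction lists and genes with clone or pseudogene names were left out beforehand, so none of them could appear. Likeness was the Pearson correlation of log2 CPM, and it ran from 0.97 to 0.99. After the mean of each genotype was subtracted it was 0.92 for Ocel1, 0.85 for Map4k2, 0.88 for Tm4sf1, 0.71 for Tle2 and 0.65 for Ggh. All 5 were lower in every knock-in library than in every wild-type library, and since they were chosen for likeness to Dsg1c this is no finding. Their differences were smaller than that of Dsg1c. Tm4sf1, a membrane protein with a tetraspanin-like topology, had wild-type values of 12.7, 15.9 and 14.2 CPM against knock-in values of 10.7, 8.86, 10.4 and 10.1 CPM. Tle2, a corepressor, had the largest log2 difference of the 5, at -0.59 ± 0.12 (SE), against -1.29 for Dsg1c.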

How the data were processed

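Whole-number counts for each gene were used as deposited, from the columns named total counts per the file headers. TPM values, scaled to gene length, were deposited by the authors as well and were used for levels between genes. Per the submitters' processing notes the genome build is mm10. The sources used here do not name a mapper, counting rules or annotation release. The authors' own log2 fold change and corrected p-value are deposited too, and 14 further per-library columns were not used.

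The genotype test ran in edgeR 4.0.16 under R 4.3.3 (TMM scaling, default expression filter, quasi-likelihood F test, genotype as the only term) on 13989 genes, with Benjamini-Hochberg adjusted p under 0.05 as a call. CPM values are scaled by the TMM library sizes. SEs follow from the F statistic. Scores use log2 CPM with a prior count of 2. Overlaps and transcript identity were taken from GENCODE release M21 (GRCm38), with blastn 2.17.0 for identity. Genes on the opposite strand share 3.99% of the exonic bases of Dsg2, 5.17% of Dsp and 1.48% of Ctnna1, and the protocol describes no strand marking, so reads there cannot be told apart. Libraries of 1 genotype differed beyond sampling noise in a chi-square test. The fits were tested on simulated data.

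The members and lists were chosen with earlier results of these data known. Named were the members, Sprtn, up to 4 genes of each junction list with the smallest p, and the genes within 100 kb of the cluster. Named too were the 5 genes most like Dsg1c outside the set and the junction lists. Outside this rule Pkp1, Ctnnb1, Gjb1, Krt18, Tjp3, Cldn1, Cldn2, Cldn6 and the marker genes given by name were named after their values were seen. Markers and junction lists came from general knowledge. The alternatives were DESeq2 1.42.0, limma-voom (limma 3.58.1), other scalings and filters, the replicate block and leaving out each library.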

Additional observations from a re-analysis of the deposited data

Results flagged for a closer look

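Among 36 genes examined for this (the members, Sprtn, the junction genes with the smallest p and the genes most like Dsg1c), the knock-in group of 4 libraries held 2 values far from the other 3, where chance gives about 1 in 20 groups. Ppl, which encodes periplakin, had 5.56 CPM in knock-in replicate 4 against 14.97 to 16.7 CPM in the other knock-in libraries. The summed mesothelium markers were also lowest in that library, at 0.353 CPM against 0.988 to 1.83 CPM in the other knock-in libraries and 1.31 to 2.05 CPM in wild type, and their part in the Ppl value was not tested. Gjc3, a connexin gene, had 1.55 CPM in knock-in replicate 2 against 0.836 to 0.883 CPM in the other knock-in libraries, while wild type ranged from 0.998 to 3.25 CPM.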

How the results depend on the processing

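The log2 difference of Dsg1c stayed between -1.38 and -1.14 over the 14 alternatives, but its call did not. Its edgeR adjusted p was 0.0725, 0.0264 with no expression filter, 0.0334 without wild-type replicate 1, 0.0807 in limma-voom and from 0.129 to 0.267 without each other library. The count of members called, 0, became 1 with DESeq2 and 1 with no expression filter, and ranged from 0 to 2 when each library was left out. The count of other junction genes called, 0, became 1 with DESeq2 (Nectin3), and ranged from 0 to 1 (Ablim1, without wild-type replicate 1). Over all genes 5 were called, 222 with DESeq2, 18 with no expression filter, 1 with the replicate block, and from 3 to 98 when each library was left out. Among 413 alternative values for 30 genes, 410 moved by less than 1 SD between libraries. The others were Pkp3 without wild-type replicate 1 (1.20), and Gja5 and Krt23 without wild-type replicate 3 (0.21 and -0.07).

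Same-numbered libraries did not deviate together (correlations of -0.06, 0.01 and -0.02), and the main test did not pair by number. A pairing with a weak effect could give the same values, so whether the numbers pair the samples is not known. With the number as a block Dsg1c had a log2 difference of -1.34 (edgeR adjusted p = 0.259), and 0 members and 0 other junction genes were called. With 3 against 4 libraries a p that misses the threshold does not show equal levels, and genes at a few counts, such as Pkp1 and Dsg1b, have ratios that depth cannot resolve.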
